A study of Mus musculus with 28 samples.

Results

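The Wnt ligands of the mouse molar were examined as 10 genes chosen by name (Wnt10a, Wnt10b, Wnt3, Wnt6, Wnt4, Wnt7b, Wnt5a, Wnt5b, Wnt11, and Wnt2) among the 52636 genes of a table of RNAseq read counts. All 10 were present in the table, and all 10 passed the filter on low counts, as did 19101 genes in all. The remaining 9 of the 19 Wnt ligands of the mouse were followed alongside them. Each library was made from a single first molar tooth germ of wild type C57BL/6JOlaHsd mice, with no treatment at any stage. The stages were E13 (bud stage, E13.5 in the labels), E14 (cap stage, E14.5), and E16 (bell stage, E16.5), with 7 teeth each from 7, 6, and 5 embryos. Another 6 teeth of E15, the stage between cap and bell, from 6 embryos were available only in a second table, in which the counts of E13, E15, and E16 were estimated with salmon. A whole tooth germ with little surrounding tissue was homogenized, so that epithelium and mesenchyme were measured together, and a level that fell can reflect fewer cells of a type or less RNA per cell, which cannot be told apart here.

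Wnt ligands are secreted glycoproteins that carry a lipid, attached by the acyltransferase Porcn to a conserved serine, and that leave the cell with the carrier protein Wls. They bind Frizzled receptors on neighboring cells. With the co-receptors Lrp5 and Lrp6, the canonical branch stabilizes beta-catenin and turns on target genes through Tcf and Lef factors, and noncanonical branches act on cell shape, polarity, and movement. In the tooth, Wnt10a and Wnt10b are known from the dental epithelium and its signaling center, the enamel knot, and WNT10A is a gene in which human mutations commonly cause missing teeth. Wnt4 and Wnt6 are likewise known as ligands of the oral and dental epithelium, Wnt7b of the oral epithelium outside the tooth, and Wnt5a, the best known noncanonical ligand, of the dental mesenchyme.

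The coding sequence around the lipid-bearing serine is shown for each of the 10 ligands, as the stretch that they share. Each line gives 45 bases of the longest coding transcript of GRCm38 (GENCODE M21), 5′ to 3′, from the codon of one conserved cysteine to that of another, with the serine codon in capitals.
Wnt10a (chr1:74803150-74803194, plus strand, exon 4 of 4): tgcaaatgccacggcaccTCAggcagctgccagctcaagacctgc
Wnt10b (chr15:98772863-98772907, minus strand, exon 5 of 5): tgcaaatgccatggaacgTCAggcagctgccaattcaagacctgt
Wnt3 (chr11:103812308-103812352, plus strand, exon 4 of 5): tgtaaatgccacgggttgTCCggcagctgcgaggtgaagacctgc
Wnt6 (chr1:74784166-74784210, plus strand, exon 4 of 4): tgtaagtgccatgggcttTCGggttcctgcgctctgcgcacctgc
Wnt4 (chr4:137296339-137296383, plus strand, exon 5 of 5): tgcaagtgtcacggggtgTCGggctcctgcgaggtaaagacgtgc
Wnt7b (chr15:85537797-85537841, minus strand, exon 4 of 4): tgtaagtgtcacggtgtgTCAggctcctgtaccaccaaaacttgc
Wnt5a (chr14:28522509-28522553, plus strand, exon 5 of 5): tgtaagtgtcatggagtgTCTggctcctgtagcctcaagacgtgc
Wnt5b (chr6:119433785-119433829, minus strand, exon 5 of 5): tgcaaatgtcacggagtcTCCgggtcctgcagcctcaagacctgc
Wnt11 (chr7:98850254-98850298, plus strand, exon 6 of 7): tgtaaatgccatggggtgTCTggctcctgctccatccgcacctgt
Wnt2 (chr6:18008777-18008821, minus strand, exon 4 of 5): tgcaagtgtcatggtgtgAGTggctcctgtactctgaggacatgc

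Of these 45 bases, 19 were the same in all 10 ligands. None of the 3 bases of the serine codon was, because 5 codons were used. TCA was shared by Wnt10a, Wnt10b, and Wnt7b, and AGT was present in Wnt2 alone. Over the whole coding sequence the closest pair was Wnt5a and Wnt5b, with 77.8% identical bases, followed by Wnt10a and Wnt10b with 71.2%. The median of the 45 pairs was 63.1%. No stretch of 84 bases, the length of a read, was shared by transcripts of different Wnt ligands, so that whole reads identical between ligands do not occur in this annotation. Wnt6 and Wnt10a are neighbors on chromosome 1, on the same strand and 6193 bases apart. The gene spans of Wnt6, Wnt5a, Wnt5b, Wnt7b, and Wnt11 overlap a gene on the opposite strand. The strand setting of the counting is not given in the sources used here, and reads of such partners cannot be told apart without it.

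RefSeq promoters (GRCm38.p6, 250 bases before to 50 after a start) were listed for 7 of the 10 ligands, with 10 entries in all. Shown here, 5′ to 3′ on the strand of the gene, are one for a ligand that rose at the cap stage, one for a ligand that rose at the bell stage, and one for the ligand that fell most, with matches to a Tcf/Lef motif (CTTTG and then any 2 letters of A or T, on either strand) in capitals.
Wnt10b promoter (chr15:98778101-98778400, minus strand): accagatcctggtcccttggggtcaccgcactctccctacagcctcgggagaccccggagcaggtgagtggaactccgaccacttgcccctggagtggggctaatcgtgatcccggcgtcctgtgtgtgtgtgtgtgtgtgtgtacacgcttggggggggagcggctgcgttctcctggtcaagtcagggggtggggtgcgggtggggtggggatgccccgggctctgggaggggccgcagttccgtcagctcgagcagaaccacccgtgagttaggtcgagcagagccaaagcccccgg
Wnt11 promoter (chr7:98834862-98835161, plus strand): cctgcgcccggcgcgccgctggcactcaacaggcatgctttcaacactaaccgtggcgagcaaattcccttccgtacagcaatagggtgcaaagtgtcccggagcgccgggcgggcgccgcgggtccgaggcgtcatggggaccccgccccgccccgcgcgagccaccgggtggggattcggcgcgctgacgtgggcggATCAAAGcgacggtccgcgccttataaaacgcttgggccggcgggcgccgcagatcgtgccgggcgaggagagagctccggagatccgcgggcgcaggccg
Wnt2 promoter (chr6:18030396-18030695, minus strand): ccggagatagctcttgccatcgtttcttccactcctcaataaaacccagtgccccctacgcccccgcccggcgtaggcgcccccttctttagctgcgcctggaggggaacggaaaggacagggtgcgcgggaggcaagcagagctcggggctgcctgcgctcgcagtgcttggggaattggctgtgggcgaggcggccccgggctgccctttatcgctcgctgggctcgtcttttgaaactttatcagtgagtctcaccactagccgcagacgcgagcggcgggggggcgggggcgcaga

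Of the 10 entries, 3 held 1 such match each, one start of Wnt11, one start of Wnt5b, and Wnt3. Of all 32851 promoters of the same length, 16.9% held at least 1. The GC content of the 10 entries ranged from 53.0% to 84.3%, against a median of 52.7% for all promoters. The windows of Wnt10b and Wnt2 held no match.

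Counts per library ranged from 17814073 to 27115729 in the main table and from 14965319 to 24056056 in the salmon table. The 10 markers of dental epithelium and the 8 of dental mesenchyme were all detected at each stage. The summed normalized count of the epithelial markers ranged from 16089 to 23995 at E13, from 27652 to 35569 at E14, and from 37222 to 65670 at E16, and that of the mesenchymal markers from 116625 to 130248, from 107544 to 122705, and from 53767 to 127299. The 7 markers of cornified oral epithelium summed to between 288 and 359 at E13, between 527 and 788 at E14, and between 12750 and 28332 at E16. The E16 tooth from the left side of embryo 3 stood apart: it was lowest of its stage for epithelium (37222), mesenchyme (53767), and the 5 enamel knot markers (1649, against 4211 in the next tooth), and it had the smallest library. Several other lists, given below, were lowest in it too. For the 10 ligands, results for E16 are therefore given with and without this tooth where it matters. Values of other single genes without it were not taken, so their E16 results include it. The enamel knot sum at E16 was led by Shh (mean 3668). Fgf4 and Fgf20 of that list had means of 188 and 64.1 at E14 and of 58.6 and 22.1 at E16. At E13, 1 tooth had 28853 summed counts of skeletal muscle markers, against a median of 960.0.

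The stages were compared with the quasi-likelihood test of edgeR, and a gene was called at an adjusted p below 0.05. From bud to cap, 3 of the 10 ligands rose (Wnt10a, Wnt10b, and Wnt3) and 3 fell (Wnt2, Wnt5b, and Wnt7b), a call for 6 of 10 where 19.7% of all genes tested were called (11.3% higher and 8.47% lower). From cap to bell, 5 rose (Wnt7b, Wnt4, Wnt11, Wnt5a, and Wnt10a) and 1 fell (Wnt2), against 28.1% of all genes called (15% higher and 13.1% lower). From bud to bell, 6 rose and 2 fell, against 41.3% of all genes (21.6% higher and 19.6% lower). The median log2 fold change of the 10 ligands was 0.02, 0.37, and 0.68 in these comparisons, and that of all genes was within 0.01 of 0 in each. Levels below are counts divided by DESeq2 size factors, called normalized counts, and errors of log2 fold changes are standard errors.

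**Figure D1:**
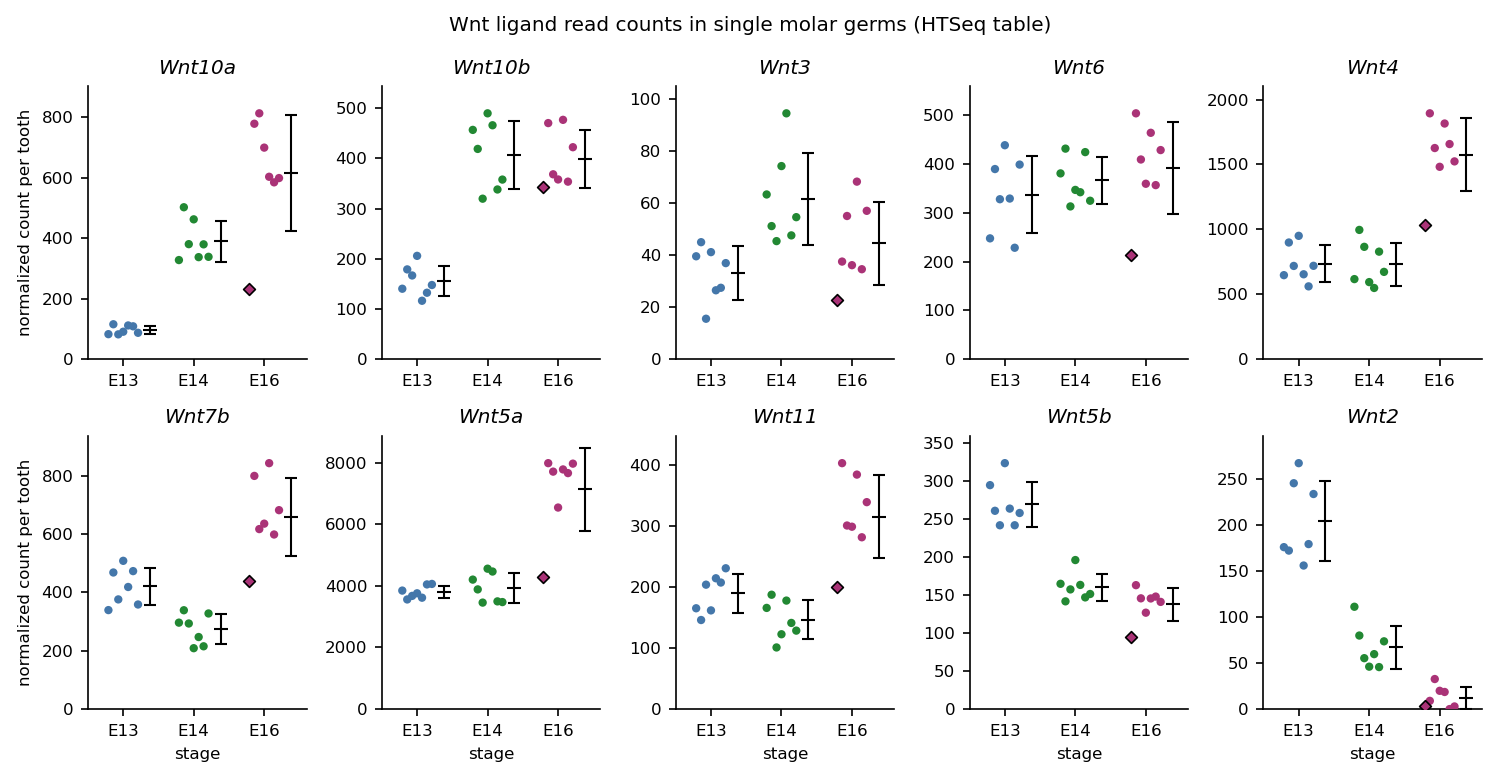
Normalized counts of the 10 Wnt ligands (y axis, linear, from 0, with its own scale in each panel) in each of 7 teeth at E13, E14, and E16 (x axis). Points are single teeth, the black dash and bars are the mean and SD, and the diamond is the left tooth of embryo 3 at E16. Wnt10a and Wnt10b rise between E13 and E14 with no overlap between teeth, whereas Wnt4, Wnt7b, and Wnt11 rise between E14 and E16 and Wnt2 falls at both steps.

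Wnt10a, a canonical ligand (ENSMUSG00000026167, chr1:74791516-74804179), showed the largest rise of the 10 ligands from E13 to E14 and from E13 to E16. Its normalized count ranged from 82.3 to 116 at E13 (median 91.0), from 328 to 503 at E14 (median 380.0), and from 232 to 813 at E16 (median 603). All 7 cap-stage teeth were above all 7 bud-stage teeth, and 6 of 7 bell-stage teeth were above the cap-stage range. On the log2 scale it rose by 2.0 ± 0.19 from E13 to E14 (adjusted p = 3.79e-08) and by 0.66 ± 0.18 from E14 to E16 (adjusted p = 0.00643). From E13 to E16 the level rose 6.30-fold, from 97.2 ± 14.4 to 616 ± 192 (SD, n = 7). The lowest E16 value was that of the left tooth of embryo 3, and without this tooth the rise from E14 to E16 was 0.81 (adjusted p = 2.93e-06, with a range over all alternatives from 2.93e-06 to 0.0380).

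Wnt10b, the closest relative of Wnt10a (ENSMUSG00000022996, chr15:98770712-98778150), rose at the first step. It ranged from 116 to 206 normalized counts at E13 (median 148), from 320 to 490 at E14 (median 419), and from 343 to 477 at E16 (median 368). The bud-stage teeth lay below all others, and the cap-stage and bell-stage teeth overlapped. The rise from E13 to E14 was 1.39 ± 0.13 on the log2 scale (adjusted p = 2.73e-08). From E14 to E16 it was -0.03, with a 95% interval from -0.29 to 0.22 (adjusted p = 0.875).

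Wnt3 (ENSMUSG00000000125, chr11:103774150-103817957), a canonical ligand, was the least abundant of the 10 per kilobase at E13 and E14. Its normalized count ranged from 15.6 to 45 at E13 (median 37.0), from 45.4 to 94.5 at E14 (median 54.6), and from 22.9 to 68.3 at E16 (median 37.6). The cap-stage teeth were just above the bud-stage range, and the bell-stage teeth overlapped both. The rise from E13 to E14 was 0.89 ± 0.26 on the log2 scale (adjusted p = 0.0152), and the difference between E13 and E16 did not pass the test (0.41 ± 0.26, adjusted p = 0.209). With the embryo number as a replicate block, the E13 to E14 difference of Wnt3 no longer passed (adjusted p = 0.0791, with a range over all alternatives from 0.00535 to 0.0791). This number is a label within a stage and does not pair teeth of different stages.

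These 3 ligands changed alongside the epithelial markers, of which 8 of 10 rose and 1 fell from E13 to E14, and the enamel knot markers, of which 5 of 5 rose. Of all genes tested, 11.3% rose and 8.47% fell over this step. The marker lists were chosen with earlier results of these data known. Per 1000 summed counts of epithelial markers in the same tooth, Wnt10a was 5.10 ± 1.19 at E13 and 12.7 ± 1.45 at E14, and Wnt10b was 7.96 ± 0.67 and 13.4 ± 2.63 (SD, n = 7), with no overlap between the stages for either ligand. Wnt3 overlapped between these stages on this scale, at 1.69 ± 0.44 and 2.04 ± 0.71. At E16, Wnt10a was at 10.4 ± 2.37, with a range that overlapped that of E14 and a median (10.3) below its lowest value (11.1), and Wnt10b was at 7.02 ± 1.13, below the range of E14. The sum was weighted by Krt5, with the highest mean of the list at E13, E14, and E16 (4701, 9450, and 23005). Epcam rose less (995, 1511, and 1787), so the ratios here and below depend on the markers summed. The part of the enamel knot cells in the changes of these 3 ligands was not tested.

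Wnt6 (ENSMUSG00000033227, chr1:74771892-74785322), an epithelial ligand next to Wnt10a, was called in none of the 3 comparisons. It ranged from 229 to 439 normalized counts at E13 (median 330), from 313 to 432 at E14 (median 347), and from 214 to 504 at E16 (median 410). The 3 ranges overlapped throughout. The difference between E13 and E16 was 0.21 ± 0.16 on the log2 scale, with a 95% interval from -0.11 to 0.53 (adjusted p = 0.302). Without the left tooth of embryo 3 it was 0.33 and passed the test (adjusted p = 0.0404, with a range over all alternatives from 0.0404 to 0.534). Per 1000 epithelial marker counts, Wnt6 went from 17.2 ± 2.41 at E13 to 12.0 ± 1.19 at E14 and 6.70 ± 0.72 at E16, each range below the one before. This ratio rests on the same sum, weighted by Krt5, and ratios to single markers were not taken.

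Wnt4 (ENSMUSG00000036856, chr4:137277489-137299726), another epithelial ligand, rose at the second step. It ranged from 561 to 950 normalized counts at E13 (median 718), from 549 to 996 at E14 (median 673), and from 1035 to 1894 at E16 (median 1626). The bud-stage and cap-stage teeth covered the same range, and every bell-stage tooth was above it. The log2 fold change was -0.01 ± 0.14 from E13 to E14 (adjusted p = 0.976) and 1.10 ± 0.14 from E14 to E16 (adjusted p = 1.74e-06). The epithelial markers rose over the same step (7 of 10 called higher, against 15% of all genes). Per 1000 counts of these markers, Wnt4 was 23.7 ± 3.96 at E14 and 27.3 ± 0.98 at E16, with overlapping ranges, after 37.6 ± 1.79 at E13. In the salmon table Wnt4 had more counts than in the main table, with a median ratio of 1.77 at E13 and 1.41 at E16. Its rise from E13 to E16 was 2.13-fold in the main table and 1.73-fold in the salmon table.

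Wnt7b (ENSMUSG00000022382, chr15:85535437-85582473), the ligand of the oral epithelium, fell and then rose. Its normalized count ranged from 339 to 508 at E13 (median 419), from 209 to 339 at E14 (median 293), and from 437 to 843 at E16 (median 636). The cap-stage teeth lay below the bud-stage teeth and well below the bell-stage teeth. The fall from E13 to E14 was -0.61 ± 0.14 on the log2 scale (adjusted p = 0.00239), and the rise from E14 to E16 was 1.25 ± 0.14 (adjusted p = 1.35e-07). With the embryo number, which pairs no teeth between stages, as a replicate block, the fall did not pass (adjusted p = 0.0546, with a range over all alternatives from 0.000346 to 0.0546). The rise to E16 came together with the markers of cornified oral epithelium, of which 7 of 7 rose, and with the dental epithelial markers, of which 7 of 10 rose. Of all genes tested, 15% rose from E14 to E16. Per 1000 summed counts of the dental epithelial markers, Wnt7b had means (± SD, n = 7) of 21.8 ± 4.07 at E13, 8.99 ± 1.56 at E14, and 11.4 ± 1.06 in the bell-stage teeth, and the E14 and E16 ranges overlapped on this scale. The part of either group of cells in the Wnt7b level was not tested.

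Wnt5a (ENSMUSG00000021994, chr14:28504750-28527448) had the most reads of the 10 ligands in every tooth. It ranged from 3559 to 4063 normalized counts at E13 (median 3759), from 3457 to 4558 at E14 (median 3886), and from 4281 to 7984 at E16 (median 7709). The first 2 stages overlapped, and 6 of 7 bell-stage teeth were above both, the exception being the left tooth of embryo 3. The log2 fold change was 0.05 ± 0.11 from E13 to E14 (adjusted p = 0.790) and 0.85 ± 0.11 from E14 to E16 (adjusted p = 9.99e-07). Without that tooth the rise was 0.96, and under all alternatives its adjusted p was at most 7.49e-05. Of the 8 mesenchymal markers, 2 rose and 3 fell over this step, where 15% of all genes rose and 13.1% fell. The medians of the sum of these markers were 117093 at E14 and 113978 at E16. The means of Col3a1 (41707 and 59021) and Lum (3422 and 5326) were higher at E16. Those of the other markers were lower, among them Prrx1 (28083 and 11464) and Msx1 (9125 and 4155).

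Wnt5b (ENSMUSG00000030170, chr6:119432531-119544347), the closest relative of Wnt5a in sequence, fell from E13 to E14. It ranged from 241 to 323 normalized counts at E13 (median 260.4), from 141 to 196 at E14 (median 157), and from 94.7 to 163 at E16 (median 145). All bud-stage teeth were above all later teeth, which overlapped each other. Its log2 fold change was -0.75 ± 0.11 from E13 to E14 (adjusted p = 2.72e-05) and -0.22 ± 0.11 from E14 to E16 (adjusted p = 0.156). Over E13 to E16, Wnt5b was at 0.511 of its starting level and Wnt5a at 1.87 times its own.

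Wnt11 (ENSMUSG00000015957, chr7:98835112-98855195), a ligand known for noncanonical signaling in cell movement, had a pattern close to those of Wnt5a and Wnt7b (Pearson r = 0.85 with each over 21 teeth). Its normalized count ranged from 146 to 230.4 at E13 (median 204), from 100.8 to 187 at E14 (median 141), and from 199 to 402 at E16 (median 300.3). The bell-stage teeth were all above the cap-stage teeth, and the bud-stage teeth overlapped both. The rise from E14 to E16 was 1.10 ± 0.15 on the log2 scale (adjusted p = 5.81e-06). The difference between E13 and E14 (-0.38 ± 0.16) did not pass the test (adjusted p = 0.0902).

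Wnt2 (ENSMUSG00000010797, chr6:17988940-18030585), a canonical ligand best known from the mesenchyme of the lung, was the only one of the 10 that fell at both steps. It ranged from 156 to 268 normalized counts at E13 (median 180.0), from 45.7 to 111 at E14 (median 59.8), and from 0 to 32.7 at E16 (median 8.94). No 2 stages overlapped. The 7 bell-stage teeth had between 0 and 38 reads of Wnt2, and the highest was the right tooth of embryo 6. The log2 fold change was -1.60 ± 0.36 from E13 to E14 (adjusted p = 0.00226), -2.44 ± 0.42 from E14 to E16 (adjusted p = 7.92e-05), and -4.04 ± 0.42 from E13 to E16 (adjusted p = 2.48e-08). Among markers of other tissue, the summed counts of cartilage ranged from 3761 to 4888 at E13 and from 748 to 1095 at E16, most of them from Col2a1 (means of 3550.0 and 414), while Acan of the same list was at 7.87 and 50.9. The summed counts of red blood cell markers were also lower at each stage than at the one before, with no overlap, and most of the difference came from Hbb-y, an embryonic globin (6576 at E13 and 41.6 at E16). The part of these cells in the Wnt2 level was not tested.

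**Figure D2:**
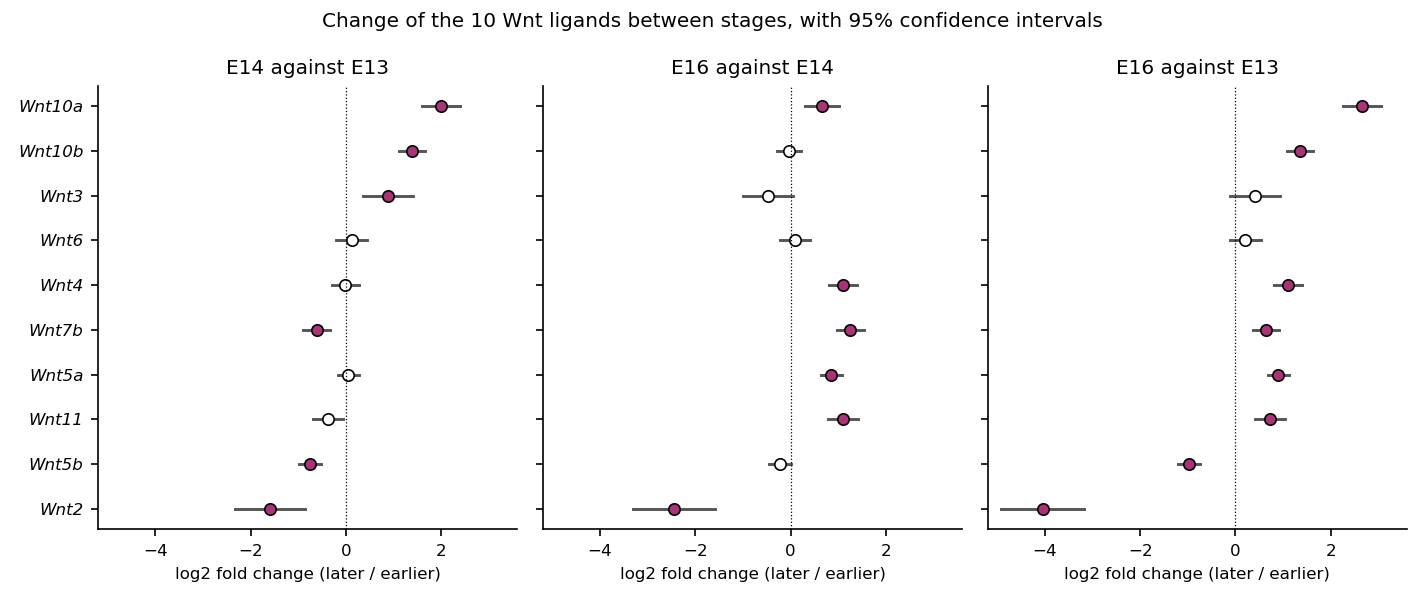
Log2 fold change of each Wnt ligand (x axis, later over earlier stage) in the 3 comparisons, with 95% confidence intervals as lines. Filled points passed an adjusted p of 0.05 and open points did not. Wnt10a reaches 2.66 and Wnt2 -4.04 from E13 to E16, whereas the interval of Wnt6 includes 0 in all 3 panels.

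Levels of different ligands were compared per kilobase of exon in the main table. On this scale Wnt5a was first at every stage, at 485 ± 25.6 normalized counts per kb in E13 teeth, 503 ± 61.2 in E14 teeth, and 912 ± 173 in E16 teeth (SD, n = 7), and its range did not overlap that of Wnt4, the second, at any stage. At E13 the ranges of Wnt4 (175 ± 33.5), Wnt6 (154 ± 35.8), Wnt5b, Wnt2, and Wnt7b overlapped from each to the next. Wnt11, Wnt10b, and Wnt10a formed a further overlapping run from 45.8 to 39.4. The overlap of Wnt4 and Wnt6 depended on the table. In the salmon table the same E13 teeth ranged from 244 to 384 per kb for Wnt4 and from 96.4 to 175 for Wnt6. Wnt10a had rank 9 at E13, rank 4 at E14 (158 ± 27.4), and rank 3 at E16 (249.5 ± 77.8). At E14 the ranges of Wnt4, Wnt6, Wnt10a, and Wnt10b overlapped from each to the next. Wnt2 went from rank 5 at E13 (90.7 ± 19.3) to last at E16 (5.47 ± 5.27), where Wnt3 (14.47 ± 5.17) was above it in all 7 teeth.

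As a share of the summed level per kb of all 19 Wnt ligands in a tooth, which does not depend on the scaling of libraries, Wnt5a held 35.0 ± 3.0% in the E13 teeth, 34.0 ± 2.99% in the E14 teeth, and 38.9 ± 1.97% in the E16 teeth. The 10 ligands together held 88.6 ± 1.28%, 89.6 ± 1.21%, and 90.2 ± 1.74%. Wnt10a and Wnt10b went from 2.84 ± 0.48% and 3.27 ± 0.46% at E13 to 10.7 ± 1.43% and 8.07 ± 0.99% at E14. At E16 Wnt10a held 10.4 ± 2.29% and Wnt10b 5.12 ± 0.94%. Over the 3 stages the share of Wnt2 went from 6.49 ± 1.13% to 2.02 ± 0.64% and 0.227 ± 0.21%, and that of Wnt5b from 7.28 ± 0.72% to 4.09 ± 0.44% and 2.23 ± 0.17%. The total of the 19 ligands went from 1393 ± 96.0 normalized counts per kb at E13 to 1477 ± 109 at E14 and 2344 ± 444 at E16. Its E16 range began at 1414, in a tooth that lay within the E14 range of 1344 to 1629.

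**Figure D3:**
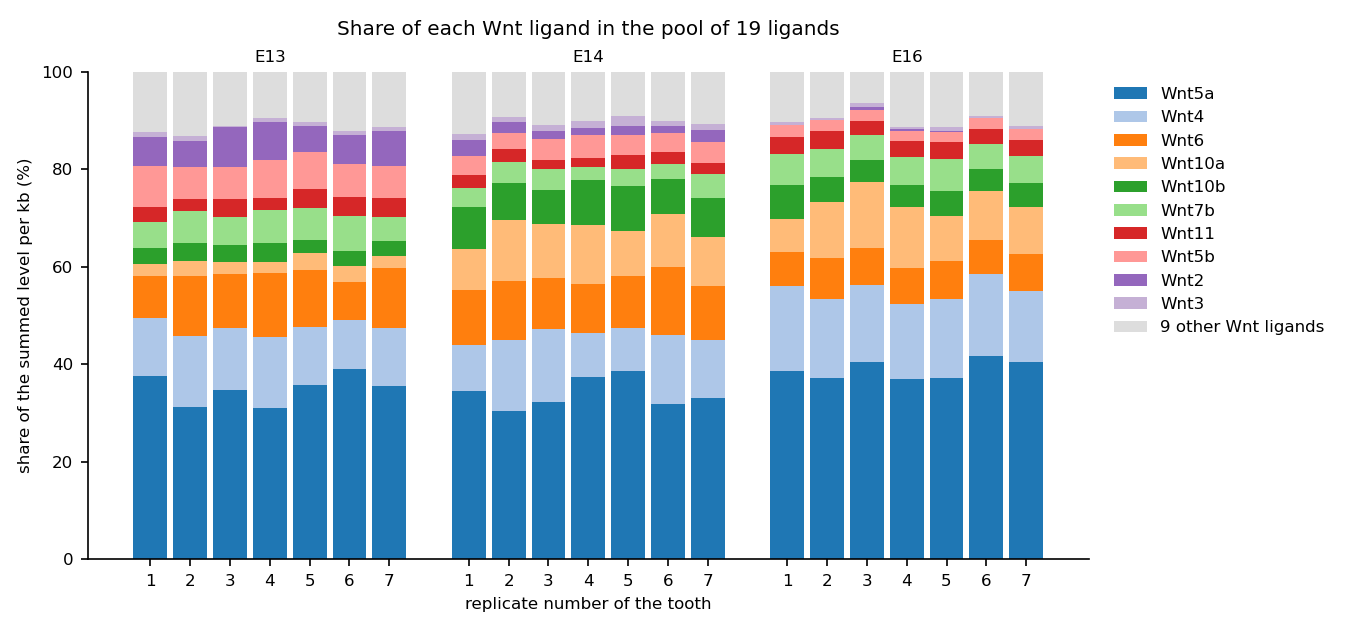
Share of each Wnt ligand (y axis, percent of the summed normalized count per kb of 19 ligands) in each of 21 teeth (x axis, replicate number within E13, E14, and E16). Wnt5a is the largest segment in every tooth, from 30.5% to 41.8%, while the segments of Wnt10a and Wnt10b widen at E14 and those of Wnt2 and Wnt5b narrow.

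The E15 teeth were compared with E13 and E16 within the salmon table. E15 was submitted separately from the other stages, so that stage and submission cannot be told apart in either comparison. From E13 to E15, 4 of the 10 ligands rose (Wnt10a, Wnt10b, Wnt4, and Wnt5a) and 1 fell (Wnt2), where 26.8% of all 13447 genes tested were called (18.3% higher and 8.49% lower). From E15 to E16, 3 rose (Wnt7b, Wnt10a, and Wnt5a), where 6.33% of genes were called (3.64% higher and 2.69% lower). Between E13 and E16, which both tables hold, the salmon table gave 6 ligands higher and 2 lower, with 36.4% of genes called (21.7% higher and 14.7% lower).

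Wnt10a ranged from 275 to 406 normalized estimated counts in the 6 E15 teeth (median 309), against 74.5 to 111 at E13 (median 89.4) and 252 to 775 at E16 (median 579). The E15 teeth lay above all E13 teeth and below 6 of 7 E16 teeth. The log2 fold change was 1.84 ± 0.19 from E13 to E15 (adjusted p = 9.22e-08) and 0.85 ± 0.18 from E15 to E16 (adjusted p = 0.00379). Wnt10b was at 188 ± 27.5 at E13, 397 ± 107 at E15, and 490.0 ± 48.1 at E16, and only its first difference passed (1.12 ± 0.15, adjusted p = 3.14e-06).

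Wnt4 and Wnt5a were already higher on average at E15 than at E13. The ranges of Wnt4 overlapped, from 1025 to 1610 at E13 and from 1477 to 2336 at E15. Wnt4 rose by 0.60 ± 0.11 on the log2 scale (adjusted p = 0.000187), and Wnt5a by 0.54 ± 0.10 (adjusted p = 0.000300). Wnt5a ranged from 3226 to 3831 at E13 (median 3474), from 4433 to 5707 at E15 (median 4775), and from 4447 to 7409 at E16 (median 7149). The E15 teeth were above all E13 teeth. They overlapped the E16 teeth only through the left tooth of embryo 3 at E16 (4447, against 5967 in the next tooth). The rise of Wnt5a from E15 to E16 was 0.39 ± 0.10 (adjusted p = 0.0222), and it did not pass when teeth of one embryo were summed (adjusted p = 0.0742) or without the right tooth of embryo 6 at E15 (adjusted p = 0.0596), the left tooth of embryo 5 at E16 (adjusted p = 0.0507), or the left tooth of embryo 8 at E16 (adjusted p = 0.0515). Without the left tooth of embryo 3 at E16 the rise was 0.46 (adjusted p = 0.000178). Over all alternatives its adjusted p ranged from 0.000178 to 0.0742.

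Wnt7b did not pass the test between E13 and E15 (-0.13 ± 0.16, adjusted p = 0.583). It ranged from 218 to 511 at E15 (median 360.0) and from 467 to 810 at E16 (median 610.3). The ranges overlapped only through the left tooth of embryo 3 at E16 (467, against 571 in the next tooth). The rise was 0.80 ± 0.16 (adjusted p = 0.00280), and 0.86 without that tooth (adjusted p = 0.000984). Wnt11 was between its E13 and E16 levels, at 214 ± 59.9, and passed in neither comparison (adjusted p = 0.130 and 0.259).

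Wnt2 ranged from 13.53 to 40.3 at E15 (median 24.0), against 146 to 251 at E13 (median 166). All E15 teeth were below all E13 teeth, with a log2 fold change of -2.83 ± 0.44 (adjusted p = 3.60e-05). From E15 to E16 the difference was -1.22 ± 0.47 (adjusted p = 0.151), and it passed without the right tooth of embryo 6 at E16 (adjusted p = 0.0299, with a range over all alternatives from 0.0299 to 0.254). Wnt5b was at 169 ± 64.1 at E15, between 251 ± 35.6 at E13 and 129 ± 16.4 at E16, and its difference from E13 was just outside the threshold (-0.52 ± 0.20, adjusted p = 0.0557).

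**Figure D4:**
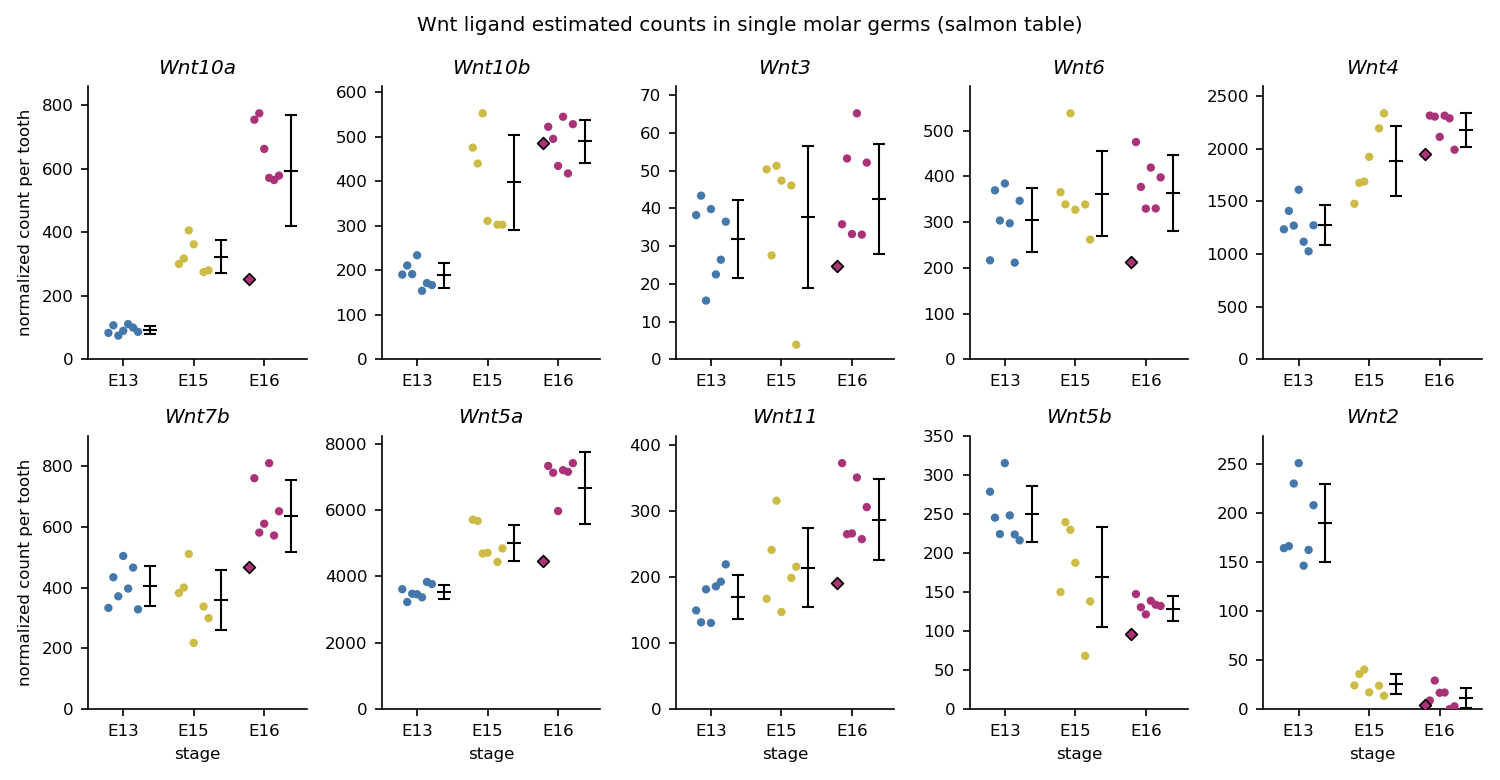
Normalized estimated counts of the 10 Wnt ligands (y axis, linear, from 0, with its own scale in each panel) in single teeth of E13, E15, and E16 (x axis), from the salmon table. Points are 7, 6, and 7 teeth, the black dash and bars are the mean and SD, and the diamond is the left tooth of embryo 3 at E16. Wnt10a, Wnt10b, and Wnt5a are higher in every E15 tooth than in every E13 tooth, and Wnt2 is lower.

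Of the other 9 Wnt ligands, Wnt1, Wnt8a, and Wnt8b were at or near 0 in every tooth, with at most 8 reads. Wnt3a, a canonical ligand, rose at both steps, from 66.7 ± 28.2 normalized counts at E13 to 122 ± 34.0 at E14 (log2 fold change 0.86 ± 0.25, adjusted p = 0.0159) and 255 ± 83.9 at E16 (1.06 ± 0.24, adjusted p = 0.00145). Wnt7a, the sister gene of Wnt7b, had between 0 and 8 reads at E13, between 3 and 15 at E14, and between 52 and 167 at E16. Its teeth were all higher at E16 than at E14, with a log2 fold change of 3.56 ± 0.44 (adjusted p = 8.16e-07). Wnt9b, which lies 24328 bases from Wnt3 on the opposite strand, fell from 22.6 ± 9.27 at E13 to 1.54 ± 2.20 at E16 (adjusted p = 8.90e-05). Like Wnt2 it was called lower at both steps, at few reads. Its log2 fold change was -1.83 ± 0.58 from E13 to E14 (adjusted p = 0.0278) and -1.98 ± 0.74 from E14 to E16 (adjusted p = 0.0470). Wnt2b was lower at E16 than at E13 (-0.69 ± 0.23, adjusted p = 0.0170). Wnt9a, at 261 ± 36.8 at E13 and 218 ± 64.7 at E16, and Wnt16, at 118 ± 18 and 88.8 ± 35.7, were called in no comparison.

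Over the 21 teeth, the strongest pairing among the 10 ligands was that of Wnt10a and Wnt10b, with a Pearson r of 0.89 between log2 levels. Wnt5a and Wnt11 (0.85), Wnt7b and Wnt11 (0.85), and Wnt4 and Wnt5a (0.84) followed. The lowest r was that of Wnt5b and Wnt10a (-0.80). These values describe 21 libraries that share stage and tissue makeup, and are given without a test.

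The protein-coding genes most like each ligand over the same 21 teeth were found by Pearson r on the log2 scale. For Wnt10a they included Ascl5 and Casz1 (r of 0.98 and 0.97), and Ascl5 went from 29.8 normalized counts at E13 to 168 at E14 and 369 at E16. For Wnt10b they included Lamb3, which encodes a laminin chain of the epithelial basement membrane, and Plekha6 (0.96 and 0.95). For Wnt4 they were Ptpn13, Evpl, and Pygl (0.95 each). Wnt5a went with Arrb1, Hdac4, and Gas6 (0.95 to 0.96), and Gas6 was also among the genes of Wnt11, after Gdf7 and Lrrc56 (0.89 to 0.91). Wnt7b went with Sp9, Satb1, and Cacna2d2 (0.92 to 0.93). Sp9, a transcription factor of outgrowing epithelia, went from 238 at E13 to 87.7 at E14 and 633 at E16. Wnt2 went with Islr2, Mn1, and Rnf182 (0.91 to 0.93), and Wnt5b with Sept3, Adgrl2, and Aif1l (0.94 to 0.95). The highest values were lower for Wnt6 (Mast3, 0.85) and Wnt3 (2410004P03Rik, 0.80).

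The genes that make, receive, and answer to Wnt ligands were counted from lists of names, and each count stands against the share of all genes tested that rose or fell: 11.3% and 8.47% from E13 to E14, 15% and 13.1% from E14 to E16, and 21.6% and 19.6% from E13 to E16. Of the genes for lipidation and secretion, Porcn rose from E14 to E16 (0.50 ± 0.11, adjusted p = 0.000853), from 307 ± 39.3 to 435 ± 57.8 normalized counts, and Wls did not pass the test between E13 and E16 (0.07 ± 0.07, adjusted p = 0.437). Of 10 Frizzled receptors, 1 rose from E13 to E14, which was Fzd1 (0.82 ± 0.21, adjusted p = 0.00791), named after its values were seen, and this was close to the share of all genes. From E14 to E16, 3 rose (Fzd3, Fzd5, and Fzd6) and 3 fell (Fzd1, Fzd4, and Fzd9). Fzd6 was higher at E16 than at E13 (0.86 ± 0.12, adjusted p = 1.60e-06), and Fzd4 (-0.92 ± 0.15, adjusted p = 1.46e-05) and Fzd8 (-0.84 ± 0.17, adjusted p = 0.000348) were lower. Fzd9 fell from E14 to E16 (-1.28 ± 0.36, adjusted p = 0.00817).

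The 8 co-receptors and other receptors differed by at most 0.22 in either direction on the log2 scale from E13 to E14. From E14 to E16, Reck rose (0.38 ± 0.12, adjusted p = 0.0230), and Adgra2, its partner in Wnt7 signaling, fell (-0.55 ± 0.14, adjusted p = 0.00429), as did Lrp6 (-0.28 ± 0.07, adjusted p = 0.00610). Of 8 core genes of planar polarity, the noncanonical branch, 3 rose from E13 to E14 (11.3% of all genes did) and 4 were higher at E16 than at E13 (21.6% of all genes were). Celsr1, Prickle3, Celsr2, and Vangl1 were those 4, with log2 fold changes from 0.47 to 0.83.

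R-spondins amplify canonical signaling by binding Lgr receptors and removing the ligases Rnf43 and Znrf3 that clear Frizzled from the membrane. Of 9 genes of this group, 5 rose (Rspo1, Rspo4, Lgr6, Rnf43, and Znrf3) and 1 fell (Lgr5) from E13 to E14, and 7 were higher and 2 lower at E16 than at E13. Of all genes tested, 19.7% and 41.3% were called in these comparisons. Rspo4 rose from 11.6 ± 8.67 normalized counts at E13 to 160.4 ± 42.1 at E14 (3.78 ± 0.36 on the log2 scale, adjusted p = 4.38e-08). At the next step Rspo2 rose from 320.3 ± 23.6 to 1325 ± 168 (2.04 ± 0.10, adjusted p = 4.03e-13), while Rspo3 fell from 512 ± 105 to 180.3 ± 19.3 (-1.51 ± 0.13, adjusted p = 1.78e-09). Lgr6 was higher at E16 than at E13 (1.28 ± 0.13, adjusted p = 1.91e-08).

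Of 10 feedback targets, genes that canonical signaling is known to turn on, 7 rose and 1 fell from E13 to E14, 4 rose and 1 fell from E14 to E16, and 8 were higher and 1 lower at E16 than at E13. Of all genes tested, 19.7%, 28.1%, and 41.3% were called. Their median log2 fold change was 0.60, 0.30, and 1.30. Notum, an enzyme that removes the lipid from Wnt ligands, rose from 35.0 ± 6.79 normalized counts at E13 to 215 ± 49.0 at E14 and 397 ± 74.3 at E16 (2.61 ± 0.17 at the first step, adjusted p = 8.73e-11). Dkk1, a secreted inhibitor of Lrp5 and Lrp6, rose from 126 ± 46.3 to 805 ± 216 (2.67 ± 0.24, adjusted p = 1.66e-08) and then fell to 489 ± 144 (-0.72 ± 0.22, adjusted p = 0.0164). Sp5, a transcription factor, rose by 2.0 ± 0.28 from E13 to E14 (adjusted p = 1.14e-05). Axin2, a negative regulator of the pathway and the single target of the 10 that fell from E13 to E14, was lower at E14 than at E13 (-0.37 ± 0.11, adjusted p = 0.0234), and it too was named after its values were seen. Dkk4 had a mean of 0.269 normalized counts at E13 and was at 28.8 at E14 and 45.9 at E16. The rise of these genes came at the same step as those of Wnt10a, Wnt10b, and the enamel knot markers, and their dependence on any ligand was not tested.

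**Figure D5:**
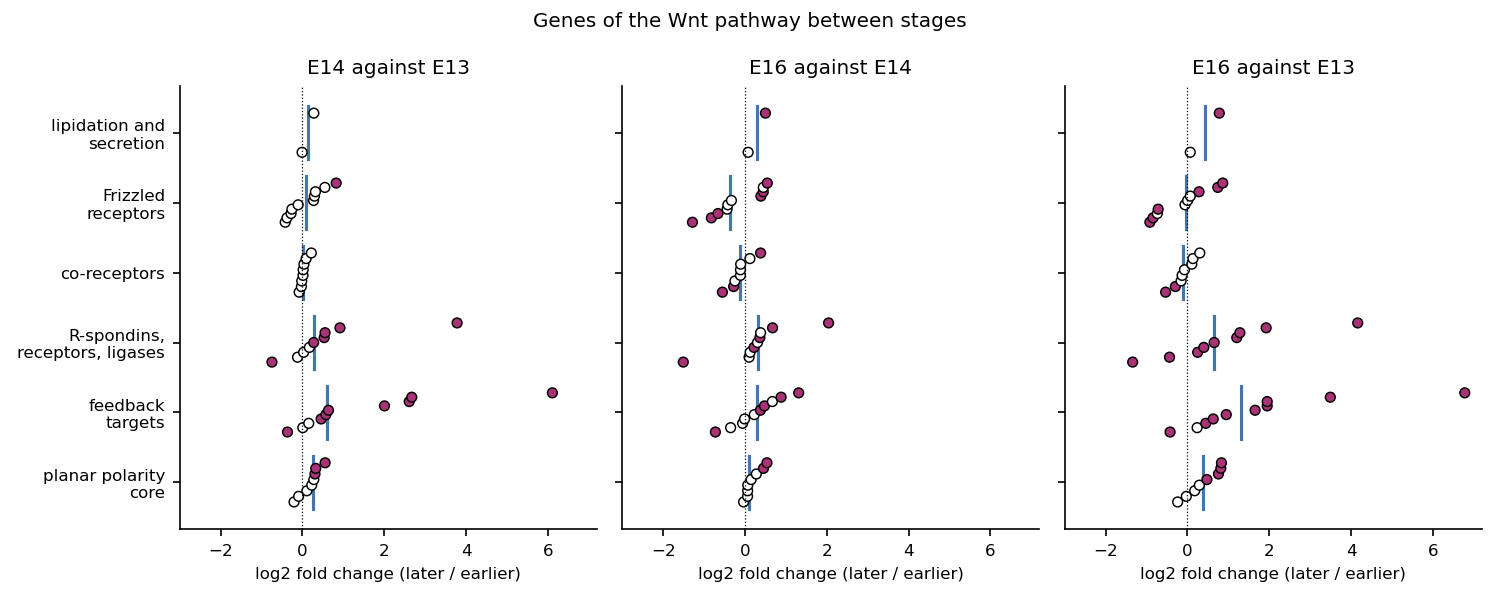
Log2 fold changes (x axis, later over earlier stage) of single genes in 6 lists of Wnt pathway genes (rows) for the 3 comparisons. Each point is a gene, filled where it passed an adjusted p of 0.05, and the vertical bar is the median of the list. The feedback targets have medians of 0.60, 0.30, and 1.30, whereas those of the co-receptors lie near 0.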

How the data were processed

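RNAseq libraries of single mouse molars were analyzed, 7 each of E13, E14, and E16 and 6 of E15. Reads had been filtered by the authors (FastQC, AfterQC, Trimmomatic) before alignment to GRCm38, Ensembl release 90, by STAR and counting by HTSeq, and the deposited counts are not normalized. For the table with E15, the deposited estimated counts were made by salmon (version 0.99.0 in the submitters' processing notes) and are whole numbers. A seventh E15 tooth is not analysed here. Names and coordinates came from GENCODE M21 (GRCm38), which lacks 147 identifiers of the main table.

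Genes kept by filterByExpr (19101, and 13447 in the salmon table) entered the edgeR (version 4.0.16, R 4.3.3) quasi-likelihood test with a factor for stage and TMM normalization over all teeth of a table, and p values were adjusted over all genes tested (Benjamini-Hochberg). The test was also run on simulated counts drawn independently for each tooth. That run held no outlying tooth and no teeth sharing an embryo, so it does not measure their effect. The coefficient of variation between teeth was 21.2%. Levels are counts divided by DESeq2 (version 1.42.0) size factors. Some teeth came from one embryo (1 pair at E14 and 2 at E16), and the p values measure the spread between these teeth. The 10 ligands, the pathway lists, and the marker lists were chosen with earlier results of these data known. Of each pathway list, at most 4 called genes with the largest change were named, and others only where they make up a count of 5 or fewer, chosen after their values were seen. Likeness was Pearson r of log2(normalized count + 1), and some of the genes it named are not reported here. Ratios to marker sums were added after the data were seen. Alternatives were other scaling, filters, DESeq2, summed embryos, side or embryo number as a factor, 2-stage fits, and each tooth left out in turn.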

Additional observations from a re-analysis of the deposited data

Results flagged for a closer look

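In 5 of 60 groups of 6 or 7 teeth (10 ligands in the stages of both tables), 1 tooth lay farther from its group than Dixon's 95% critical value allows, where chance flags about 1 group in 20. The left tooth of embryo 3 at E16 was the lowest for Wnt5a (4281 normalized counts against 6543 in the next tooth, gap over range 0.611) and for Wnt10a in both tables (232 against 585 and a ratio of 0.607 in the HTSeq table, 252 against 565 and 0.598 in the salmon table). Both tables hold the same library. It was also the tooth with the lowest summed epithelial, mesenchymal, enamel knot, and endothelial markers of its stage. The same held for the bone (3039), cartilage (748), macrophage (1013), and Schwann cell and neuron (1226) markers. It did not hold for the markers of cornified oral epithelium, skeletal muscle, and red blood cells. The right tooth of embryo 5 at E14 was the highest for Wnt5b (196 against 164, ratio 0.575), and the right tooth of embryo 4 at E15 was the highest for Wnt6 (538 against 365 in the salmon table, ratio 0.625).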

How the results depend on the processing

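The count of changed ligands stayed within 1.5 times its main value in each comparison and under each alternative run, with 6 called when any tooth was left out for E14 against E13 and for E16 against E14, 8 to 9 for E16 against E13, 5 to 6 for E15 against E13, and 2 to 4 for E16 against E15. The embryo number does not pair teeth of different stages. With it as a replicate block, 2 ligands were higher and 2 lower at E14 than at E13, and 1677 genes were called in place of 3767. For E16 against E13, 5210 genes were called with the block and 7887 without it. Without division by length, the share of Wnt5a became 55.8%, 55.6%, and 59.3% in E13, E14, and E16 teeth, and leaving out single teeth gave 34.3% to 35.6%, 33.3% to 34.6%, and 38.5% to 39.3%. Changes of sign occurred only among differences that did not pass the test in the main fit. Wnt4 at E14 against E13 was 0.00459 with teeth of one embryo summed and -0.10 to 0.062 with single teeth left out. Wnt5a at E14 against E13 was -8.47e-05 with side as a factor. Wnt10b at E16 against E14 was 0.0119 with summed embryos, 0.00354 with side as a factor, 0.0166 with the replicate block, and -0.069 to 0.033 with single teeth left out. In the salmon table at E16 against E15, Wnt6 was 0.00715 with DESeq2 size factors, 0.00709 with the Wald test of DESeq2, and -0.10 to 0.14 with single teeth left out, and Wnt3 was -0.10 to 0.26. Wnt5b at E15 against E13 passed with DESeq2 size factors (adjusted p = 0.0376), with the Wald test (adjusted p = 0.0224), and without the left tooth of embryo 3 (adjusted p = 0.0224) or the right tooth of embryo 4 at E15 (adjusted p = 0.0188), within a range from 0.0188 to 0.116. Wnt5b at E16 against E15 passed without the right tooth of embryo 6 at E15 (adjusted p = 0.0258, the lowest of its alternatives). The causes of these changes were not tested. Depth limits Wnt2 at E16, with 0 to 38 reads a tooth, and Wnt3.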
